A study of Homo sapiens with 8 samples.

Results

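The genes described are 10 feedback inhibitors of growth factor and MAP kinase signalling or relatives expressed alongside them: the phosphatase genes DUSP1, DUSP4, DUSP5, DUSP6 and DUSP10, the Sprouty genes SPRY2 and SPRY4, and the pleckstrin homology-like genes PHLDA1, PHLDA2 and PHLDA3. They were taken as every probe set whose only annotated symbol is one of these names, which gave 20 probe sets of 22277 on the array. DUSP genes hold 10 of them, Sprouty genes 2 and PHLDA genes 8. No measured value entered the choice of probe sets for these names, but the genes themselves were chosen with earlier results of these data known.

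Expression was measured on 8 Affymetrix arrays, each with RNA from 1 sample of an established human cancer line, in a study of CD24, a small glycosylated surface protein. Colo357 (pancreatic) and HT29 (colorectal) cells were each taken after 72 h with the anti-CD24 monoclonal antibody SWA11 at a dilution of 1 to 40, and untreated. The other HT29-derived samples were 2 clones (c.G and c.E) with 2 vectors expressing CD24-directed shRNA, 1 clone with 1 such vector, and 1 control clone with a vector expressing GFP-directed shRNA. The 2-vector group therefore had 2 arrays and each other group had 1. Each shRNA sample is a single clone, no control antibody is among the samples, and the labels do not name the promoter that drives the shRNA. Whether samples came from independent cultures is not stated, so p-values speak only for these samples. The test used, limma, also borrows from the spread of all probe sets tested.

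The dual-specificity phosphatases remove phosphate from both the threonine and the tyrosine that switch a MAP kinase on. Many of them, and the Sprouty genes, are themselves switched on by the ERK pathway, so their transcripts are commonly read as a record of recent pathway output and act as brakes on it. PHLDA1 is an early response gene of the same pathway. PHLDA2 is an imprinted growth-restraining gene of the placenta, and PHLDA3 is a p53 target that competes with AKT for membrane lipid.

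CD24 itself, averaged over its 6 probe sets on the log2(intensity + 10) scale, stood at 7.78 in clone c.G, 8.39 in clone c.E and 8.40 in the 1-vector clone, against 11.56 in the GFP shRNA clone and 11.25 in untreated HT29. It stood at 10.84 in antibody-treated HT29 and 9.78 in antibody-treated Colo357, against 9.65 in untreated Colo357. The shRNA labels are therefore matched by lower CD24 transcript, while the antibody-treated samples lay within 0.41 of their untreated lines. Median probe set intensity ran from 32.4 (c.G) to 63.1 (GFP clone), and the 3'/5' ratio of the ACTB control was 1.77 on the c.G array, against 1.06 to 1.17 on the other 7. Epithelial KRT8, KRT18 and EPCAM were bright on all 8 arrays. Of 8 intestinal markers, 1 to 4 lay above the filter (an intensity of 45.0, the median of all values) on an array, the factors CDX1 and CDX2 being at 27.0 or less on each. The bright ones moved between arrays: KRT20 was 4015.5 in antibody-treated HT29 and 2761.4 to 4799.8 in the 4 shRNA clones, against 1117.1 in untreated HT29. LGALS4 was 32.5 to 682.2 in the 4 clones and 5625.5 in antibody-treated HT29, against 4581.5 in untreated HT29. VIL1 was 1408.3 in antibody-treated and 439.3 in untreated HT29. Their part in the results below was not tested. CDH1 was 1.4 to 15.4 in the 4 shRNA clones, CD24 and GFP alike, against 2172.8 in untreated HT29. Summed intensities of endothelial, leukocyte and fibroblast markers were at most 115.8, 111.7 and 249.4. In bulk RNA, fewer expressing cells and less RNA per cell cannot be told apart.

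Promoter sequence is shown for 4 of the 6 members with a window in the sequence source. These 4 differ in which signal-responsive motifs they hold. The windows are the 250 bases before the RefSeq gene start on GRCh38.p14, all on the minus strand and printed 5′ to 3′: chr5:172771196-172771445 (DUSP1), chr12:89352502-89352751 (DUSP6), chr13:80341127-80341376 (SPRY2, the first of its 3 windows) and chr12:76031777-76032026 (PHLDA1). Capitals mark motif matches.
DUSP1: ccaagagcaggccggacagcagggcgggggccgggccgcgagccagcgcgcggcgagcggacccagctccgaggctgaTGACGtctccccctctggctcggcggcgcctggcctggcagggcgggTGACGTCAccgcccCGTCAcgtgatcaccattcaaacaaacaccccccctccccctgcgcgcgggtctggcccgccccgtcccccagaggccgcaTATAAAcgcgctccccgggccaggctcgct
DUSP6: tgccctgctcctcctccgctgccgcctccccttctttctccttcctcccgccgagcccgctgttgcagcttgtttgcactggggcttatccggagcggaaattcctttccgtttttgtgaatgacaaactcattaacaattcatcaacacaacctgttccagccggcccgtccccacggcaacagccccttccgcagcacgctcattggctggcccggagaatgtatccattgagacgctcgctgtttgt
SPRY2: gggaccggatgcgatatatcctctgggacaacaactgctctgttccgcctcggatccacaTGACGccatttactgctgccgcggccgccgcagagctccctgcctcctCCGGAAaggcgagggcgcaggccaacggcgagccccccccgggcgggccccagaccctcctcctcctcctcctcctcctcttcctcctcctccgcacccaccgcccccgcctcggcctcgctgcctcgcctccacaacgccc
PHLDA1: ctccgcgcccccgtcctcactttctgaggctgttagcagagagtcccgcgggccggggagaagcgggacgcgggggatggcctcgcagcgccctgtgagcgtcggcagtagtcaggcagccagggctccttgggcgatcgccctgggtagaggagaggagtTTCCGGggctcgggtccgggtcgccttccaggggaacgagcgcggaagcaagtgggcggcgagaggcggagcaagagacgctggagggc

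The motifs searched on both strands were the cyclic AMP response element (CRE, TGACGTCA), its half-site (TGACG), the AP-1 site (TGANTCA), an ETS core (CCGGAA), the TATA box (TATAAA) and the CArG box. DUSP1 held 1 CRE at 125 to 118 bases before the start, 4 half-site matches of which 2 overlap that CRE, and a TATA box at 30 to 25. Of 35116 RefSeq windows of the same length, 1.65% held a CRE, 21.2% a half-site and 10.7% a TATA box. PHLDA1 held 1 ETS core, read on the other strand, at 89 to 84, and SPRY2 held 1 ETS core at 142 to 137 and 1 half-site at 190 to 186. An ETS core was present in 14.5% of all windows. DUSP6 held none of the motifs in this window, and AP-1 (6.57% of all windows) and the CArG box (1.16%) were found in none of the 9 windows of the 6 members with sequence. No window matched to DUSP4, DUSP5, PHLDA2 or PHLDA3 was available, so the comparisons below include genes without sequence here. These matches describe letters, not bound sites.

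The members sat at different levels in the untreated lines. Below, values are MAS5 intensities of a gene's brightest probe set unless another is named, differences are on the log2(intensity + 10) scale, and levels are not compared between genes because probe sets differ in response. Untreated Colo357 was set against untreated HT29 first, since these are the untreated samples of the antibody comparison. DUSP1, which acts on p38, JNK and ERK in the nucleus, was 2410.8 in Colo357 and 117.7 in HT29, the widest gap among the 10 genes (4.24). DUSP5, a nuclear ERK phosphatase, was 94.2 in Colo357 and 28.2 in HT29. DUSP4, an inducible nuclear phosphatase, was 297.3 in Colo357 and 105.7 in HT29. PHLDA3 was also higher in Colo357, at 335.0 against 135.7 in HT29. Going the other way, DUSP6, the cytoplasmic phosphatase most selective for ERK, was 178.0 in Colo357 and 547.0 in HT29. SPRY2, which restrains receptor tyrosine kinase signalling to ERK, was 25.6 in Colo357 and 281.2 in HT29. SPRY4, PHLDA1 and PHLDA2 were lower in Colo357 as well, by log2 differences of -1.91, -2.51 and -3.31. At 2-fold or more, 4 of the 10 genes were higher and 5 lower in Colo357, leaving DUSP10 at 0.65. By probe set, 6 of the 20 members were higher, against 14.9% of all 11810 above the filter, and 10 were lower, against 11.8%. These are 1 array against 1 array, with no test.

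**Figure D1:**
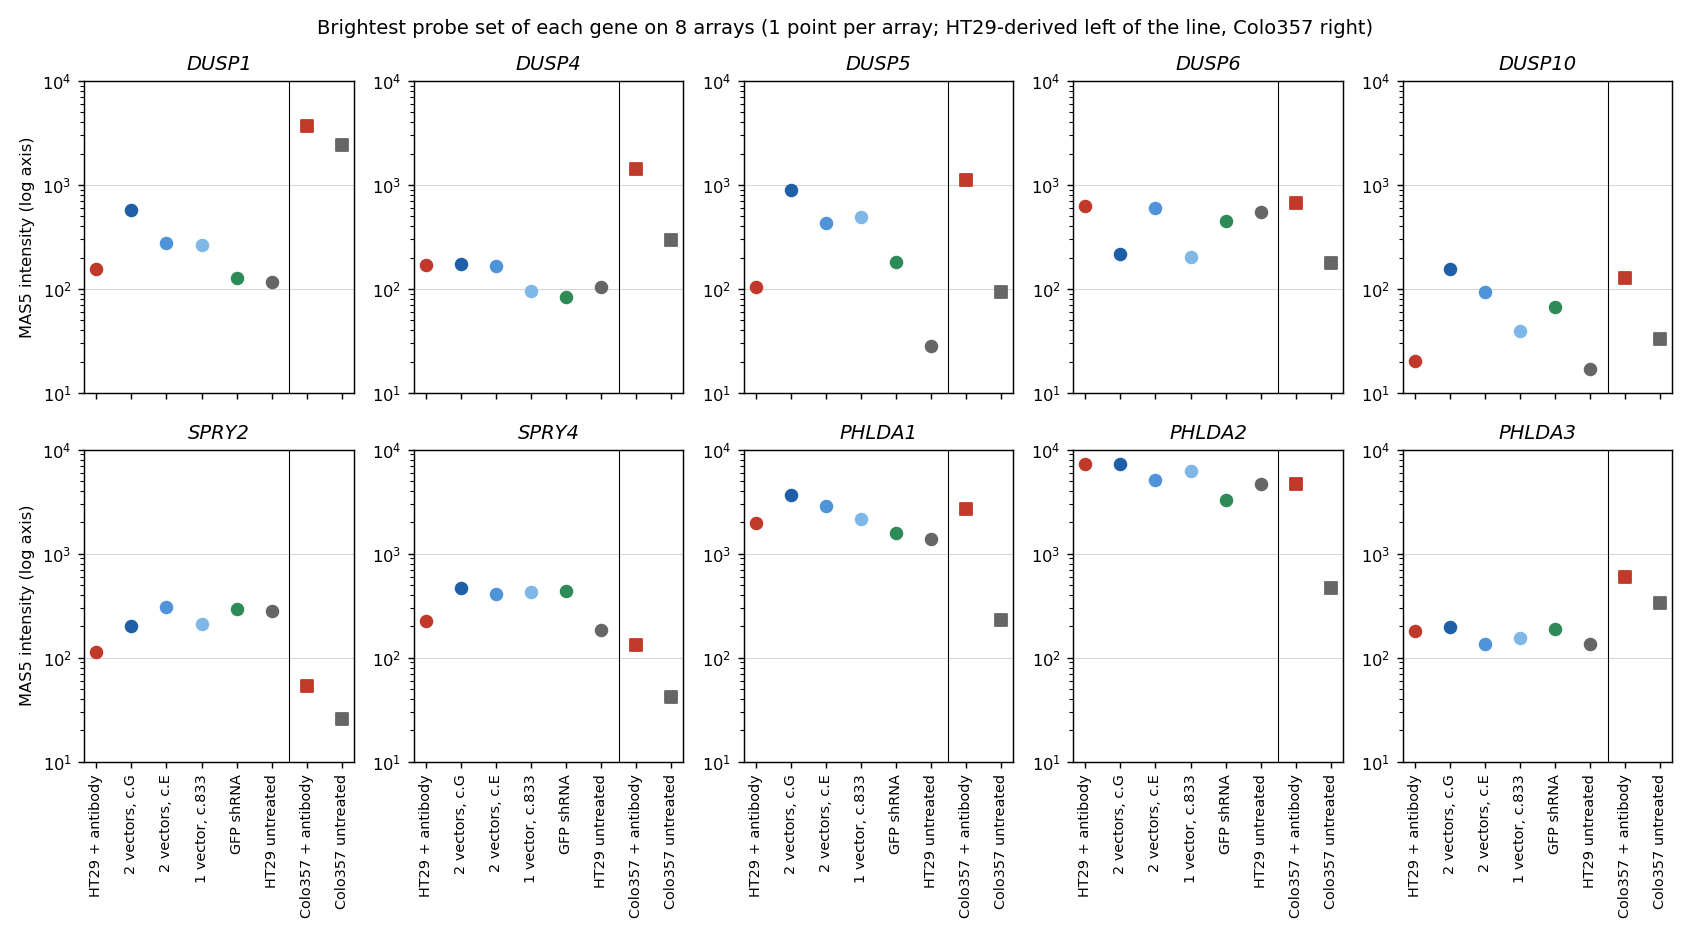
MAS5 intensity (log axis) of the brightest probe set of each of the 10 genes on each of the 8 arrays, 1 point per array, HT29-derived samples left of the line and Colo357 right of it. In Colo357, the antibody-treated point lies above the untreated one in all 10 panels, while in HT29 the largest antibody gap is that of DUSP5 (103.7 against 28.2).

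The antibody comparison in Colo357 set 1 sample after 72 h with antibody against 1 untreated sample. Without a control antibody, binding of CD24 cannot be told apart from the addition of antibody. All 10 genes were higher in the antibody-treated sample, 7 of them by 2-fold or more. Of all 11963 genes, 6124 were higher by any amount. PHLDA1 was 2719.3 in antibody-treated Colo357 and 232.8 in untreated Colo357, a difference of 3.49 (11.2-fold). DUSP5 was 1114.9 in treated and 94.2 in untreated cells (3.43, 10.8-fold), and PHLDA2 was 4706.3 in treated and 464.3 in untreated cells (3.31, 9.94-fold). Ranked by difference among the 11836 probe sets above the filter, PHLDA1 was 20th, DUSP5 23rd and PHLDA2 26th. DUSP4 came next, at 1424.0 in treated and 297.3 in untreated cells (2.22), followed by DUSP6 at 667.0 in treated and 178.0 in untreated cells (1.85). DUSP10, a phosphatase that prefers p38 and JNK, was 128.7 in treated and 32.7 in untreated cells (1.70). SPRY4, a Sprouty inhibitor like SPRY2, was 132.1 in treated and 42.1 in untreated cells (1.45). The remaining 3 genes were under 2-fold: SPRY2 (53.6 in treated, 25.6 in untreated), PHLDA3 (602.3 in treated, 335.0 in untreated) and DUSP1 (3712.7 in treated, 2410.8 in untreated). The mean of the SPRY2 values lay below the filter.

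The other probe sets of the phosphatases moved like the brightest: DUSP4 204014_at differed by 1.92, DUSP6 208892_s_at and 208893_s_at by 2.42 and 2.24, and DUSP10 215501_s_at by 1.67. PHLDA2 209802_at did not, at 4.1 in treated and 16.4 in untreated cells, both below the filter. By probe set, 13 of the 20 were higher at 2-fold or more and 0 lower, and 18 of the 20 lay above the intensity filter. Of all 11836 probe sets above it, 10.2% were higher and 14.0% lower. With 1 probe set per gene and no filter, 7 of 10 members were higher, against 1200 of all 11963 genes. The median difference of the 10 genes was 1.77, against -0.07 over all probe sets above the filter. PHLDA2 and DUSP6, lower in untreated Colo357 than in untreated HT29, were near or above the HT29 level in treated Colo357. PHLDA2 was 4706.3 in treated Colo357 and 4698.2 in untreated HT29, and DUSP6 was 667.0 in treated Colo357 and 547.0 in untreated HT29. PHLDA1 was above it, at 2719.3 in treated Colo357 against 1374.4 in untreated HT29. SPRY2 and SPRY4 were below it, at 53.6 and 132.1 in treated Colo357 against 281.2 and 185.4 in untreated HT29. The untreated Colo357 array is a separate sample, not an earlier time of the treated one. It serves in both the line and the antibody comparison, so a value particular to that array would enter both.

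In HT29 the same antibody gave smaller differences. DUSP5 was 103.7 in antibody-treated HT29 and 28.2 in untreated HT29 (1.57, 2.98-fold), the only member gene higher by 2-fold or more. It ranked 145th of 11016 probe sets above the filter. With a pseudocount of 50 in place of 10 its difference was 0.97, under 2-fold. SPRY2 went the other way, at 114.4 in treated and 281.2 in untreated cells (-1.23), and ranked 481st from the lowest. At their brightest probe sets the remaining 8 genes were all higher by 0.15 to 0.64, DUSP4 and PHLDA2 the most (0.64 each), with PHLDA1 at 1975.5 in treated and 1374.4 in untreated cells. The least, DUSP10, was 20.2 in treated and 17.2 in untreated cells, below the filter. Of the 20 probe sets, 1 was higher at 2-fold or more, against 4.64% of all 11016, and 2 were lower, against 8.13%, so neither share stands far from the background. Per gene without a filter it was 1 of 10, against 778 of all 11963. Higher by any amount were 9 of the 10 genes, against 5911 of all 11963. The median of the 10 genes was 0.39, against -0.07 over all probe sets above the filter. The difference between the lines was not tested, since each line has 1 array per condition.

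**Figure D2:**
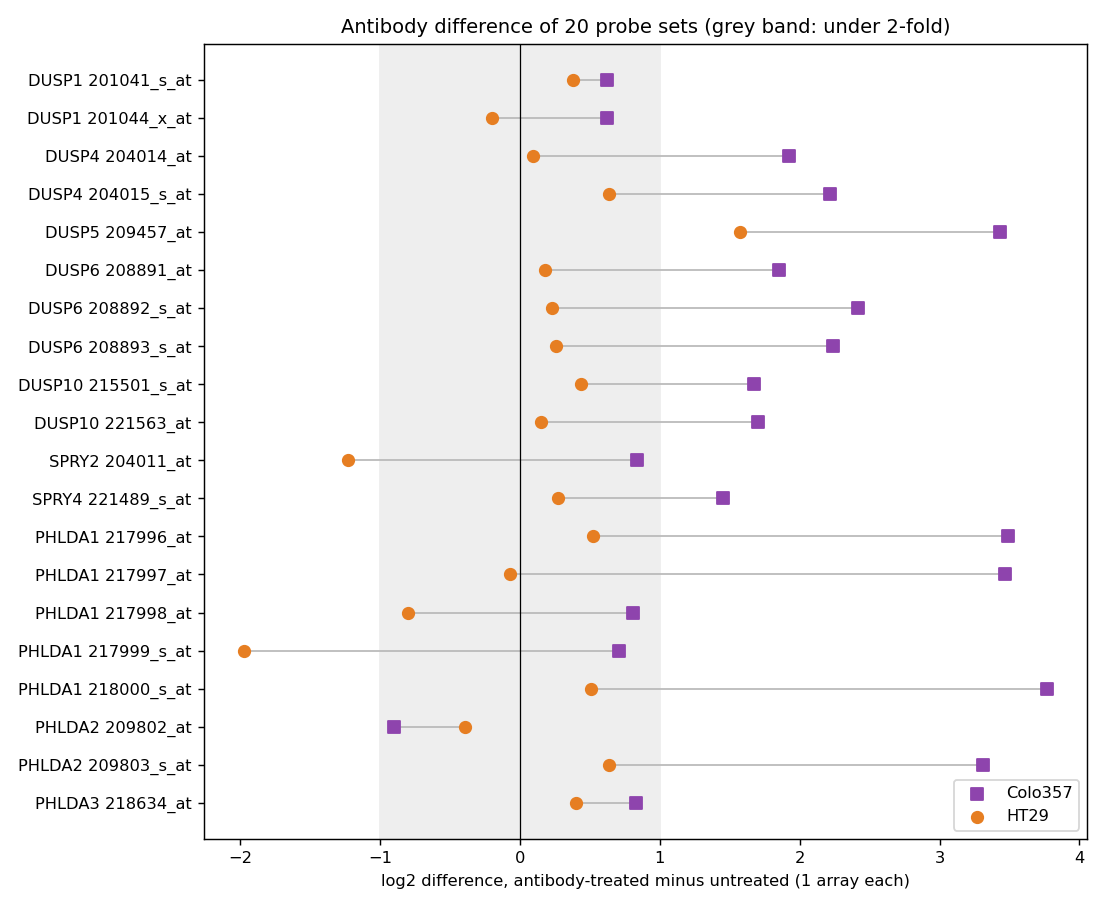
Log2 difference of log2(intensity + 10), antibody-treated minus untreated, for each of the 20 probe sets in Colo357 (squares) and HT29 (circles), 1 array against 1 array each; the grey band covers differences under 2-fold. The Colo357 point lies right of the HT29 point for 19 of the 20, the exception being PHLDA2 209802_at, which was below the filter on every array.

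Across both lines, with the line as a block, limma could test the antibody on 4 arrays with 1 residual degree of freedom. That degree of freedom is the gap between the differences of the 2 lines, so no spread within a line was measured. The moderated SEs draw mostly on the spread of all probe sets tested (13.3 total degrees of freedom). Of the 20 probe sets, 19 were tested and 4 rose, belonging to 3 genes: 1.74% of all 11785 probe sets tested were called higher and 3.89% lower. DUSP5 rose by 2.50 ± 0.42 (limma moderated SE, 2 arrays against 2, adjusted p = 0.0103), PHLDA2 by 1.98 ± 0.50 (adjusted p = 0.0372) and PHLDA1 by 2.01 ± 0.53 and 2.14 ± 0.56 at its 2 brightest probe sets (adjusted p = 0.0443 and 0.0436). DUSP4, at 1.43 ± 0.40, missed the threshold of 0.05 in that limma fit (adjusted p = 0.0529), and its other probe set gave 1.00 (adjusted p = 0.163). No member fell. DUSP6 (1.02 ± 0.41, adjusted p = 0.147; 1.32 and 1.25 at its other probe sets), SPRY4 (0.86 ± 0.37, adjusted p = 0.177) and SPRY2 (-0.19 ± 0.44, adjusted p = 0.827) did not pass in limma either. SPRY2 differed in sign between the lines. Without a line block, without the filter, with quantile normalization, in a fit of all 8 arrays or with 1 probe set per gene, none of these calls held, the limma adjusted p of DUSP5 then being 0.808, 0.180, 0.113, 0.932 and 0.0606. In the fit of all 8 arrays the 1 residual degree of freedom is the gap between clones c.G and c.E. That fit therefore measured no spread among antibody-treated or untreated samples. The DUSP5 difference was 2.63 with quantile normalization and 2.50 in the other 4 settings. In a fit of the mean of each gene's probe sets all 3 calls were lost as well, the limma adjusted p being 0.0799 for DUSP5, 0.341 for PHLDA1 (1.04) and 0.323 for PHLDA2 (0.67).

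PHLDA1 is measured by 5 probe sets, and they did not move alike. In Colo357, 217996_at, 217997_at and 218000_s_at were higher with antibody by 3.49, 3.47 and 3.77, whereas 217998_at and 217999_s_at were higher by 0.81 and 0.71. In HT29 the first 3 differed by 0.52, -0.07 and 0.51, and the other 2 by -0.80 and -1.97. For 217999_s_at that was 30.3 in antibody-treated HT29 against 147.4 in untreated HT29. The mean of the 5 differed by -0.36 in HT29, and the PHLDA1 call across both lines rests on the 2 brightest probe sets. The sources used here give no probe positions, and whether the 5 report different transcript ends was not tested.

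**Figure D3:**
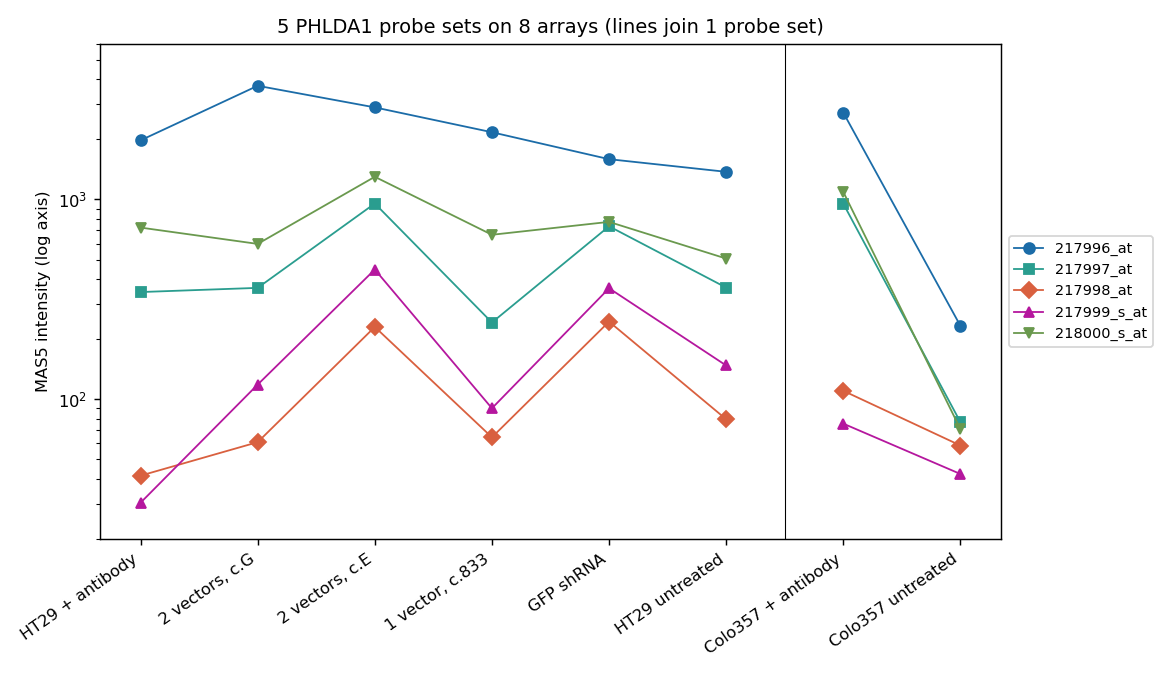
MAS5 intensity (log axis) of the 5 PHLDA1 probe sets on the 8 arrays; lines join 1 probe set. 217998_at and 217999_s_at are highest in clone c.E and the GFP shRNA clone (229.9 to 445.6) and 30.3 to 147.4 elsewhere, while 217996_at is highest in clone c.G (3705.9).

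The shRNA clones were next set against both controls, the GFP shRNA clone and untreated HT29, to see what accompanies lower CD24 within HT29. At the brightest probe sets, the 3 CD24 shRNA clones stood above both controls in DUSP1, DUSP5, PHLDA1 and PHLDA2. These were 4 of the 17 member probe sets above the filter, against 17.4% of all 11420, so the share is not far from the background. DUSP5 was 903.0 in c.G, 428.4 in c.E and 494.2 in the 1-vector clone, against 181.1 in the GFP clone and 28.2 in untreated HT29. DUSP1 was 577.5 in c.G, 276.7 in c.E and 262.7 in the 1-vector clone, against 128.9 in the GFP clone and 117.7 in untreated HT29. For both, clone c.G was highest and the groups did not overlap. The c.G array is also the one with the ACTB ratio of 1.77, whose part in these values was not tested; without it the differences from both controls were 2.46 for DUSP5 and 1.07 for DUSP1. PHLDA1 was 3705.9, 2888.7 and 2169.2 in c.G, c.E and the 1-vector clone, against 1590.1 in the GFP clone and 1374.4 in untreated HT29. The other 4 PHLDA1 probe sets overlapped the controls, at differences of 0.36 (218000_s_at), -0.23 (217997_at), -0.42 (217999_s_at) and -0.48 (217998_at). PHLDA2 was 7283.0, 5161.2 and 6272.3 in those clones, against 3249.5 in the GFP clone and 4698.2 in untreated HT29.

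The fitted differences were 2.78 ± 0.70 for DUSP5, 1.43 ± 0.45 for DUSP1, 0.94 ± 0.38 for PHLDA1 and 0.66 ± 0.38 for PHLDA2 (limma moderated SE, 3 arrays against 2). None passed: the limma adjusted p was 0.234 for DUSP5 and DUSP1, 0.25 for PHLDA1 and 0.352 for PHLDA2. No probe set of the 11420 tested passed this test (0.0%). An unadjusted limma p under 0.05 was seen for 19.4% of all tested and for 3 of the 17 members tested, all higher. These shares are close. The exact permutation test of 3 clones against 2 controls cannot give less than 0.1, which is what DUSP5, DUSP1 and PHLDA2 had. All 3 clones lay above both controls in 5 of the 20 probe sets. Among the 17 above the filter it was 4, against 17.4% of all tested. In 0 probe sets did all 3 lie below both, against 22.7%. At 2-fold or more, 3 were higher (DUSP1, DUSP5 and DUSP10), against 6.05%, and 1 was lower (DUSP6 208893_s_at), against 19.6%. The median of the 10 genes was 0.63, against -0.07 over all probe sets above the filter.

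The choice of control mattered. Against the GFP clone alone, the 3 clones averaged 1.62 higher in DUSP5, 0.30 in DUSP10 and 0.00 in SPRY4. Set against untreated HT29 alone, the same clones averaged 3.94, 1.80 and 1.19 higher. The GFP clone itself stood above untreated HT29 in these 3 genes: DUSP5 was 181.1 in the GFP clone and 28.2 in HT29 (2.32), DUSP10 was 66.8 in the GFP clone and 17.2 in HT29 (1.50), and SPRY4 was 434.6 in the GFP clone and 185.4 in HT29 (1.19). DUSP1, PHLDA1 and PHLDA2 averaged above either control, by 1.37, 0.84 and 0.92 over the GFP clone and 1.49, 1.05 and 0.39 over untreated HT29. In the GFP clone against HT29, 5 of the 20 probe sets were higher at 2-fold or more, DUSP10 221563_at lying below the filter. Among the 15 above the filter it was 4, against 15.2% of 11773, and 0 were lower, against 6.35%. The antibody, shRNA, GFP clone and cell line comparisons all share the untreated HT29 array.

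**Figure D4:**
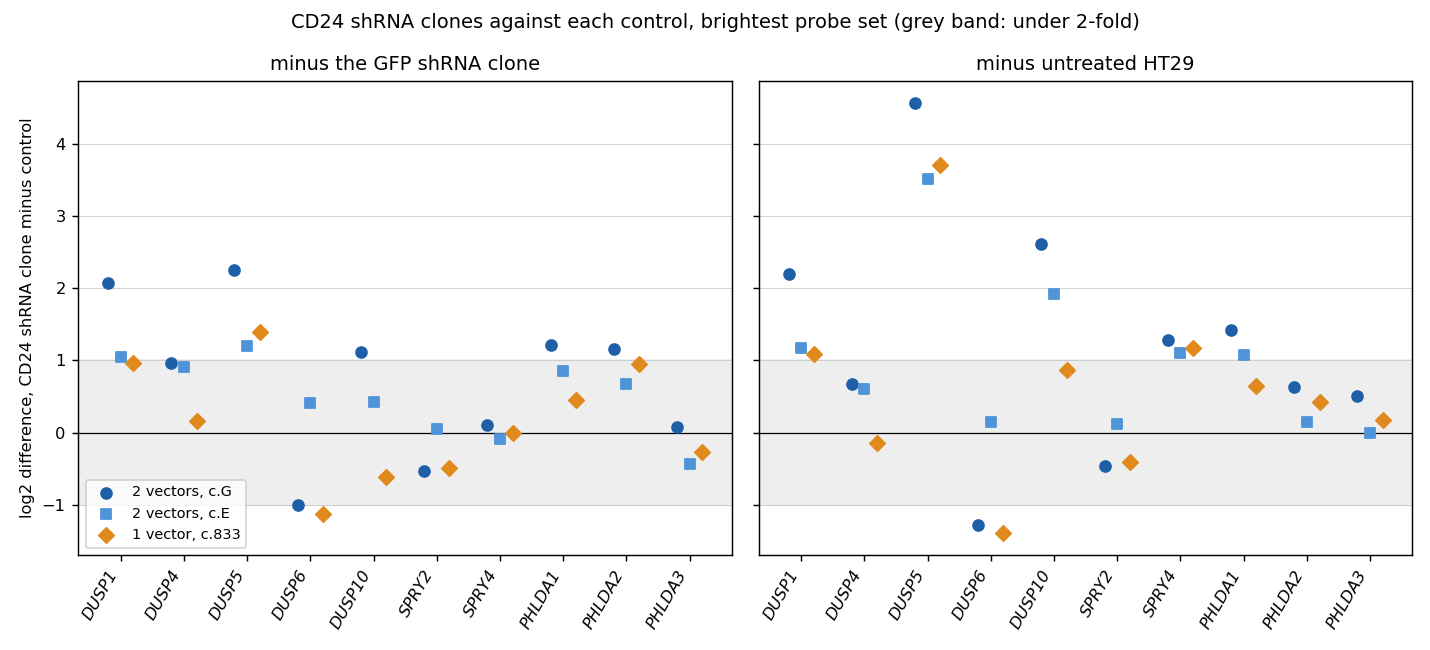
Log2 difference of each of the 3 CD24 shRNA clones from the GFP shRNA clone (left) and from untreated HT29 (right) for the brightest probe set of each gene; the grey band covers differences under 2-fold. DUSP5 is over 1 in all 3 clones on both sides, whereas SPRY4 lies at -0.09 to 0.11 against the GFP clone and at 1.10 to 1.29 against untreated HT29.

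DUSP6 split the clones in another way. It was 218.3 in c.G and 201.2 in the 1-vector clone but 603.7 in c.E, against 450.7 in the GFP clone and 547.0 in untreated HT29. Its other probe sets gave 165.2 and 50.6 in c.G, 158.7 and 90.6 in the 1-vector clone and 391.4 and 316.2 in c.E. The fitted difference of -0.71 ± 0.53 did not pass in limma (adjusted p = 0.462). Among the shRNA clones a like split, with c.E near the GFP clone, was seen in PHLDA1 217997_at, 217998_at and 217999_s_at. Untreated HT29, at 361.8, 79.3 and 147.4 in these, lay nearer c.G and the 1-vector clone, unlike in DUSP6. The clones were also divided this way over all 11821 probe sets above the filter. There the median absolute log2 difference was 0.36 between c.G and the 1-vector clone and 0.40 between c.E and the GFP clone, but 0.57 between c.G and c.E. Untreated HT29 differed by 0.46 from c.E and by 0.86 from c.G. Whether the DUSP6 split is separate from that wider split was not tested. SPRY2 was 201.2 in c.G, 307.5 in c.E and 208.9 in the 1-vector clone, against 297.1 in the GFP clone and 281.2 in untreated HT29. PHLDA3 was 136.1 to 197.8 in the CD24 shRNA clones, against 187.8 in the GFP clone and 135.7 in untreated HT29, so its groups overlapped.

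The comparison of 2 vectors with 1 vector gave little that could be tested. DUSP10 was 156.7 in c.G and 92.6 in c.E, against 39.8 in the 1-vector clone, and DUSP4 was 173.9 and 165.8 in the 2-vector clones, against 94.8. DUSP10 was the only gene past 2-fold, at 1.39 (adjusted p = 1.0 in limma, 3 arrays). Of the 20 probe sets, 4 were higher at 2-fold or more, 3 of them above the filter, against 5.8% of 10785. Both figures moved with the clone: without c.G, 9 of 20 were higher, against 17.9% of 11019, and without c.E, 4 of 20, against 3.53% of 10202. In all, 12 of the 20 had both 2-vector clones above the 1-vector clone. Among the 17 above the filter it was 9, against 28.6%. None passed limma (0.0% of all tested passed), and 0 had an unadjusted p under 0.05, against 2.13%. The 2 clones with 2 vectors differed from each other by 0.55 in the median of the 10 genes (absolute log2), and the 1-vector clone differed from c.G by 0.56 and from c.E by 0.35.

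The wider pathway was read from lists of other genes, counted at 2-fold or more per gene without a filter. Of 9 other dual-specificity and MAP kinase tyrosine phosphatases measured, 3 were higher and 0 lower in antibody-treated Colo357 (median 0.39), against 1200 higher and 1254 lower of all 11963 genes. In HT29 none of the 9 reached 2-fold (median 0.41), and none of the 8 tested passed across both lines in limma. Among these, DUSP14 was 1286.3 in treated and 338.6 in untreated Colo357. DUSP7, which like DUSP6 acts on ERK in the cytoplasm, was 324.5 in treated and 108.1 in untreated Colo357. Of 8 genes listed as other receptor and Ras feedback inhibitors, 1 was higher in antibody-treated Colo357 and 0 lower. The higher one was IER3 (5022.9 in treated, 1928.7 in untreated Colo357). Whether IER3 acts as an inhibitor in these cells was not tested. SPRY1, the close relative of SPRY2, was 76.0 in treated and 98.2 in untreated Colo357, and 145.0 in treated and 252.9 in untreated HT29. In the shRNA clones SPRY1 was 40.6 in c.G, 91.0 in c.E and 117.1 in the 1-vector clone, against 285.7 in the GFP clone and 252.9 in untreated HT29, a difference of -1.69 (limma adjusted p = 0.234). So SPRY1 lay below both controls where DUSP1 and DUSP5 lay above them.

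Of 21 ERK-responsive transcription factors, 6 were higher in antibody-treated Colo357 and 0 lower, with a median of 0.63 against 0.02 over all genes. ATF3, a stress-induced factor, was 1051.8 in treated and 65.2 in untreated cells, and the AP-1 members FOSL1 and JUN were 1013.8 and 1074.2 in treated cells, against 95.5 and 161.0 in untreated cells. Across both lines, 3 of the 18 tested rose and 0 fell in limma, against 140 and 266 of 7153 genes, ATF3 (2.29 ± 0.54, adjusted p = 0.0297) and EGR1 (1.41 ± 0.38, adjusted p = 0.0486) among them. In antibody-treated HT29, 1 of the 21 was higher, JUNB at 569.5 against 184.3 in untreated HT29, and 2 were lower, against 778 and 799 of all 11963 genes. In the shRNA clones 7 of 21 were higher and 0 lower (median 0.54), against 588 and 1534 of all 11963 genes. They were led by FOSB (2.08, limma adjusted p = 0.241) and ATF3 (1.81, adjusted p = 0.235), and none passed. Genes of the Ras-Raf-MEK-ERK cascade itself had 0 higher and 2 lower of 12 in Colo357 (median -0.11). Of 10 EGF receptor family members and ligands, 4 were higher and 3 lower in Colo357, and across both lines 1 of 7 tested rose and 1 fell. The one that rose, HBEGF, which activates the EGF receptor, was 1925.0 in treated and 117.9 in untreated Colo357 and rose across both lines by 2.48 ± 0.52 (limma adjusted p = 0.0192). Of 13 other p53 targets, 4 were higher and 2 lower in Colo357, with CDKN1A, a cell cycle inhibitor, rising by 2.67 ± 0.34 across both lines (limma adjusted p = 0.00448), while PHLDA3 did not pass (adjusted p = 0.296). None of 8 neighbours of PHLDA genes and AKT reached 2-fold in Colo357. The limma calls on ATF3, EGR1, HBEGF and CDKN1A did not hold without the filter, without a line block or with quantile normalization. Nor did they hold in a fit of all 8 arrays, as no probe set passed in any of these settings.

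The gene nearest to each member in pattern over the 8 arrays was found among 6410 genes by the root mean square (RMS) difference of centred log2 values. TNFRSF12A, a receptor of the TNF family, was nearest to both PHLDA1 (0.28) and PHLDA2 (0.34), at 2440.0 in antibody-treated and 172.8 in untreated Colo357. FST was nearest to DUSP4 (0.29), PMEPA1 to DUSP10 (0.35) and PDGFB, a growth factor chain, to DUSP5 (0.55). The median RMS difference over all genes was 0.96 to 1.90 for the 10 members. The 8 arrays include 6 of HT29 origin, so these likenesses are descriptions of this sample set. DUSP5 had the least close neighbour.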

How the data were processed

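Deposited values were probe set intensities on a linear scale, MAS5 signals per the submitters' processing notes; the version is not given in the sources used, nor are background settings and detection calls. The 2% trimmed mean was 250.1 on all 8 arrays, so no further scaling was applied. Of 22277 probe sets, 62 are controls. In the platform annotation 19064 probe sets had 1 symbol, 1043 several and 2108 no symbol; 19052 single symbols were updated through the RefSeq table of GRCh38.p14.

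Values were converted to log2(intensity + 10), 10 being the rounded 25th percentile of all non-control values, which understates differences of dim probe sets. A comparison used probe sets with a mean over its own arrays above 45.0, the median of all non-control values. Tests were limma (3.58.1 in R 4.3.3; lmFit and eBayes, two-sided) with Benjamini-Hochberg adjustment over all probe sets tested: antibody over both lines with line as block, 3 CD24 shRNA clones against 2 controls, and 2 vectors against 1. The fits were checked on simulated data. Comparisons of 1 array with 1 array have no test, and precision is limited throughout by the number of arrays. Genes are represented by their brightest probe set, and other probe sets are named where given. The named genes are all members, CD24, up to 4 of each list with the largest difference in a comparison, and the nearest gene in pattern. Members, lists and tests were chosen with earlier results of these data known. Alternatives were quantile normalization, pseudocounts of 1 and 50, no filter, 1 probe set per gene, mean of probe sets, no _x_at probe sets, a fit of all 8 arrays, no line block and leaving out each array.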

Additional observations from a re-analysis of the deposited data

Results flagged for a closer look

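For 5 member probe sets the antibody difference had opposite signs in the 2 lines; the difference between lines was not tested, since each value compares 1 array with 1 array. SPRY2 was higher with antibody in Colo357 (0.84) and lower in HT29 (-1.23), a gap of 2.06. PHLDA1 217999_s_at gave 0.71 in Colo357 and -1.97 in HT29, a gap of 2.68. PHLDA1 217998_at gave 0.81 and -0.80 (gap 1.60), and 217997_at gave 3.47 and -0.07 (gap 3.54). DUSP1 201044_x_at gave 0.62 in Colo357 and -0.20 in HT29 (gap 0.82), with HT29 intensities of 3.1 with antibody and 5.1 without. SPRY2 in Colo357 was 53.6 with antibody and 25.6 without, so its Colo357 levels lie close to the filter of 45.0.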

How the results depend on the processing

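The antibody test over both lines called 663 probe sets (205 higher, 458 lower). It called 439 (140 higher) with a pseudocount of 50, 79 (33 higher) with 1, 25 (10 higher) with 1 probe set per gene, and 0 in limma with quantile normalization, no filter, no line block or all 8 arrays, where 2482, 3366, 674 and 551 had an unadjusted p under 0.05; in all 4 the calls on DUSP5, PHLDA1 and PHLDA2 were lost. The mean of probe sets also ended all 3 calls. PHLDA1 and PHLDA2 were also lost with a pseudocount of 1 (adjusted p = 0.12 and 0.108 in limma) and without _x_at probe sets (0.0734 and 0.065). Counts at 2-fold without a filter, with 1 probe set per gene and, for the antibody, with a pseudocount of 50 were 2834, 857 and 713 in HT29 (1407 as reported), 4368, 1730 and 1838 in Colo357 (2865), 4223 and 1611 for the GFP clone (2540) and 4995 and 1967 for the untreated lines (3149). With quantile normalization the share of calls that were higher was 49.8% in antibody-treated HT29 (36.3% as reported) and 53.5% in the GFP clone (70.6%).

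The shRNA test, 0 as reported, called 2 probe sets in the fit of all 8 arrays, 3 with a pseudocount of 50, and 0 to 1119 when 1 array was left out, 1119 (1099 lower) without c.E and 28 (17 higher) without the GFP clone; no member gene passed in any of these. The vector test, 0 as reported, called 21 with 1 probe set per gene and 33 with quantile normalization. Signs turned for SPRY2 in the antibody test without HT29 (0.84; -1.23 without Colo357), PHLDA3 in the shRNA comparison (-0.21 without untreated HT29, -0.13 without c.G, 0.23 without the GFP clone) and 5 genes in the vector comparison: DUSP5 (-0.20 without c.G, 0.86 without c.E), SPRY2 (-0.05 without c.E, 0.54 without c.G), SPRY4 (-0.02 quantile, -0.08 without c.G), PHLDA2 (0.16 quantile, 0.09 mean of probe sets, 0.22 without c.E, -0.28 without c.G) and PHLDA3 (-0.05 quantile, -0.17 without c.G, 0.34 without c.E). Leaving out 1 array moved the shRNA difference of DUSP5 between 1.62 and 3.94, that of DUSP10 between 0.30 and 1.80 and that of SPRY4 between 0.00 and 1.19. Of 470 alternatives for 70 gene results, 411 kept direction and side of the threshold within the spread, 28 moved, 19 lost the call and 12 turned sign; the cause was not tested. In comparisons of 1 array with 1 array, 4 further values under 2-fold, counted above by their size, had the opposite sign: PHLDA1 in antibody-treated HT29 (-0.36, mean of probe sets), and in the GFP clone DUSP1 (-0.22 quantile, -0.05 mean of probe sets) and SPRY2 (-0.08 quantile). The antibody arrays are paired by line through the block; the labels give no replicate numbers by which other samples could be paired.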
